A study of Mus musculus with 768 samples.

Results

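Ccl3, Ccl4, Ccl5 and Xcl1 encode the chemokines for which NK cells are best known, and their transcripts were followed here in single NK cells taken from a mouse tumor. The genes were chosen by symbol, as 4 of the 24490 gene entries measured in every well, and each symbol stood on 1 entry. Ccl5 was found in nearly every cell and Xcl1 in most cells, whereas Ccl3 and Ccl4 were found in a minority of cells and often together. Cells were described if 1000 to 3500 genes were detected, which kept 726 of 768 wells, 360 of them WT and the rest PD-1-/-.

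The NK cells had infiltrated MTAP1A, a transplanted fibrosarcoma line derived from a Tap1-deficient mouse and low in MHC class I. The hosts were C57BL/6 mice, either wild type (WT) or deficient in PD-1 (PD-1-/-), and the tumors of 3 mice were pooled for each genotype. Cells were sorted singly and made into libraries with SMART-SEQ2, a method that reads along the whole transcript. The hosts were 8 to 12 weeks of age, and the genotypes were matched for age and sex. Every genotype was a single pool on its own plate. Genotype and plate therefore cannot be told apart, cells are not replicates, and no test between genotypes was possible. All intervals below are exact 95% binomial (Clopper-Pearson) intervals that cover counting error only.

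Chemokines are small secreted proteins that draw leukocytes along a gradient toward cells bearing the matching receptor. CCL3 and CCL4 are also known as MIP-1α and MIP-1β, and receptors of CCL3 include CCR1. CCL5, or RANTES, has CCR1 and CCR3 among its receptors. XCL1, or lymphotactin, acts through XCR1, the receptor carried by cross-presenting dendritic cells. Activated NK cells are a known source of CCL3, CCL4, CCL5 and XCL1, and NK cells that release CCL5 and XCL1 are known to draw dendritic cells into tumors.

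Ccl3, Ccl4 and Ccl5 lie in the chemokine cluster of chromosome 11 and Xcl1 lies alone on chromosome 1. RefSeq promoters of Ccl3 and Xcl1 were at hand, and the 250 bases before their start sites are shown because these genes differed in how often they were found. Capitals mark matches, on either strand, to the NFAT core GGAAA, the RUNX core TGTGGT and the T-box word TCACAC. NFAT factors carry calcium signals from activating receptors, and RUNX and T-box factors shape NK cell identity. The Ccl3 window is chr11:83649379-83649628 and the Xcl1 window chr1:164935523-164935772, both on the minus strand of GRCm38.p6.
Ccl3: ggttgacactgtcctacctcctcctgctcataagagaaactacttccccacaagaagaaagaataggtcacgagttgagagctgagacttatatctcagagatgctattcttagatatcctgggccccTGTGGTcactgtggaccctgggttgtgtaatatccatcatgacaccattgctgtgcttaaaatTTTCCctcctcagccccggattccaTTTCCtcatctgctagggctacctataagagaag
Xcl1: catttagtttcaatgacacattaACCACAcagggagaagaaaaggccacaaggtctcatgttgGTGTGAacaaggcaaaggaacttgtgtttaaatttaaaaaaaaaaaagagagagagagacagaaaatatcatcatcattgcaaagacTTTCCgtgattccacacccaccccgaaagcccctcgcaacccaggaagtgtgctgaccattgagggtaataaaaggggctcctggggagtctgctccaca
The Ccl3 window held 2 NFAT cores and 1 RUNX core, and the Xcl1 window held 1 NFAT core, 1 RUNX core and 1 T-box word. These words are common: among 27025 promoters of the same length, 55.6% held the NFAT core, 14.2% the RUNX core and 12.2% the T-box word. Neither window held the AP-1 word TGANTCA, a kappaB site or the CRE word TGACGTCA, which 6.87%, 0.337% and 1.62% of promoters held. A match is a description of the letters and no evidence of binding.

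Wells held a median of 247258 recovered reads in WT and 262674 in PD-1-/- cells, with a range from 1037 to 396730 and from 1549 to 437231. The median number of genes was 2264 and 2262. All 8 NK-like markers were found. Fcer1g, an adaptor of activating receptors, was the most frequent, at 100% (WT) and 99.7% (PD-1-/-). Eomes was the least frequent of the 8, at 61.9% and 55.2%. T-cell receptor complex transcripts (Cd3d, Cd3e or Cd3g) were found in 65 WT and 83 PD-1-/- cells although the sort excluded CD3+ cells. The most frequent myeloid-like marker, Cd68, was found in 6.39% and 3.28% of cells. Pdcd1, which encodes PD-1, was found in 9 WT and 47 PD-1-/- cells, and since RPKM per gene does not show which part of the gene was read, it is no check of the labels.

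Ccl5 was the constant member. Its transcript was detected in 93.3% (interval 90.2 to 95.7) of WT cells and, for PD-1-/-, in 93.4% (90.4 to 95.8), and 24 cells lacked it in each genotype. Its RPKM, reads scaled to transcript length and sequencing depth, ran in WT cells with the transcript from 4.70 through a median of 3827 to 56746. The PD-1-/- cells with it ran from 3.75 through a median of 5134 to 49416. By mean RPKM over all cells, 6624 in WT and 7611 in PD-1-/-, Ccl5 ranked 6 among all entries in both genotypes. By mean it thus stood somewhat below Actb, the cytoskeletal actin, and B2m, the light chain of MHC class I. Those had means of 10933 and 9755 RPKM in WT and were found in 100% of cells. The WT median over all cells was 3417 RPKM for Ccl5, against 10757 for Actb and 9330 for B2m.

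Xcl1 came next. It was present in 77.2% (72.5 to 81.5) of WT cells and in 69.9% (65 to 74.6) of the PD-1-/- cells, and was missing from 82 and 110 cells. In WT cells with the transcript its level ran from 4.87 through a median of 986 to 35178 RPKM. Those of PD-1-/- ran from 4.77 through a median of 860 to 27322 RPKM. Most cells therefore held Xcl1 at a moderate level and a few at a very high one, with means over all cells of 1623 and 1312 RPKM.

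Ccl4 was a minority transcript, detected in 28.1% (23.5 to 33) of WT cells and, on the other plate, in 38.5% (33.5 to 43.7). In WT cells with the transcript its level ran from 4.61 through a median of 385 to 48169 RPKM. In PD-1-/- cells with the transcript it ran from 2.92 through a median of 438 to 76352 RPKM, and in that highest cell Ccl4 made up 12.6% of all RPKM. Most cells held no Ccl4 read, and those that did spread over a wide range on the plot of RPKM per cell.

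Ccl3 was the least frequent member, in 70 WT cells (19.4%, 15.5 to 23.9) and 87 PD-1-/- cells (23.8%, 19.5 to 28.5). In WT cells with the transcript its level ran from 7.09 through a median of 257.8 to 15358 RPKM. On the PD-1-/- plate it ran from 2.72 through a median of 386 to 29502 RPKM. The intervals of Ccl3, Xcl1 and Ccl5 shares did not overlap each other within either genotype, while those of Ccl3 and Ccl4 overlapped in WT (upper bound 23.9 against lower bound 23.5) and not in PD-1-/-.

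**Figure D1:**
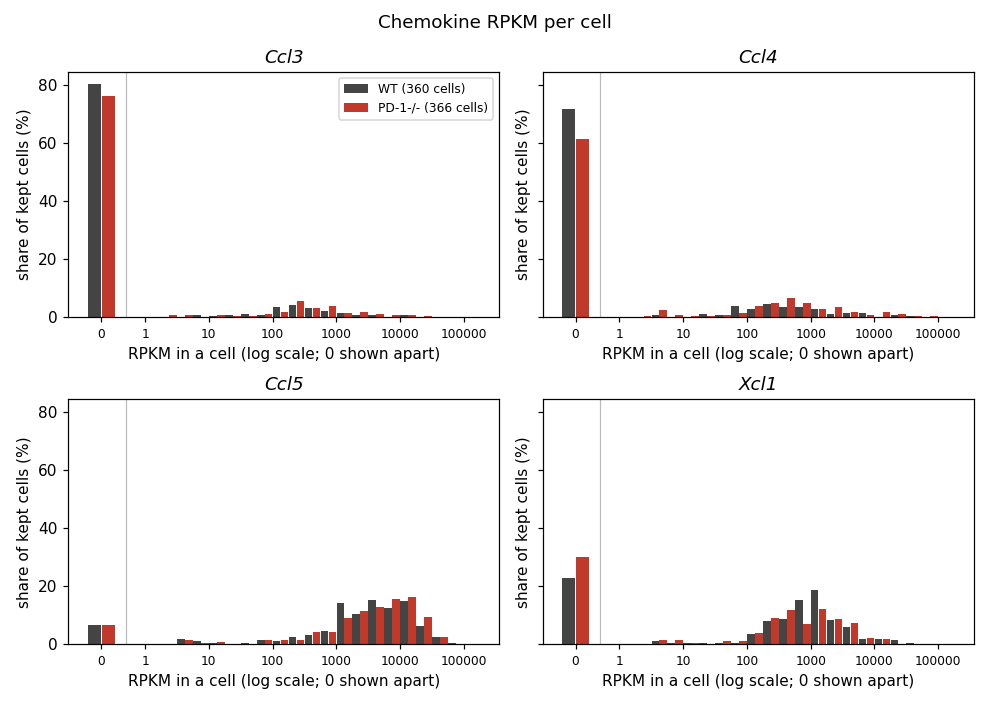
Share of kept cells (percent) at each level of RPKM, on a log scale with cells at 0 drawn apart, for each chemokine in WT (grey) and PD-1-/- (red). Cells at 0 make up 80.6% and 76.2% for Ccl3 and 71.9% and 61.5% for Ccl4, against 6.67% and 6.56% for Ccl5, and few cells lie between 0 and 10 RPKM.

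On and off states were set against constant genes by the spread of levels. A median cell turned 1 read into 3.90 RPKM of Ccl3, 4.67 of Ccl4, 5.81 of Ccl5 and 6.14 of Xcl1, and a read was worth more in a shallower cell. Transcripts lost in capture are not counted, so a value of 0 sets no upper limit on the level. Cells between 0 and 10 RPKM were few, at 2 WT and 4 PD-1-/- cells for Ccl3, 3 and 13 for Ccl4, 10 and 7 for Ccl5, and 5 and 10 for Xcl1. The more common state of a cell with Ccl3 or Ccl4 was 100 to 1000 RPKM, held by 46 WT and 52 PD-1-/- cells for Ccl3 and by 51 and 74 for Ccl4. A cell thus mostly had no Ccl3 or Ccl4 read or over 100 RPKM.

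The 10% of WT cells with the most transcript, 36 cells, carried 93.6% of all Ccl3 RPKM, 93% of Ccl4, 58.7% of Xcl1 and 39.2% of Ccl5. In PD-1-/- the 37 highest cells carried 92.2%, 89.7%, 57.2% and 37.6%. The same share was 17.5% and 19.2% for Actb, 17.7% and 17.5% for B2m, and 24.9% and 23.8% for Klrb1c, the NK1.1 antigen used in the sort. A single cell held 23.2% of the WT plate's Ccl3 RPKM and 23% of its Ccl4 RPKM, against 2.38% for Ccl5.

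Ccl5 was constant in its presence but not in its level. Among WT cells with the transcript, the level at the 90th percentile was 46.5 times that at the 10th, and the same ratio was 50.9 in PD-1-/- cells. For Xcl1 it was 22.8 and 27.6, for Ccl3 36.2 and 52.3, and for Ccl4 65.4 and 250.5. Actb had ratios of 2.80 and 2.97 and B2m 2.24 and 2.46. Among NK receptors, Klrb1c reached 7.13 and 6.71 and Ncr1, which encodes NKp46, 10.1 and 10.3.

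High mean levels with low detection were rare. Among entries whose WT mean reached 500 RPKM, the median detection was 95.1% of cells, and 2 entries were found less often than Ccl4. On the PD-1-/- plate the median was 95.6% and 3 entries stood below Ccl4. At low means detection varied by gene. Gapdh, with means of 38.4 and 39.9 RPKM, was still found in 92.8% and 95.1% of cells. Jun and Nfkb1, with WT means of 42.6 and 30.15 RPKM, were found in 31.4% and 34.7% of WT cells.

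**Figure D2:**
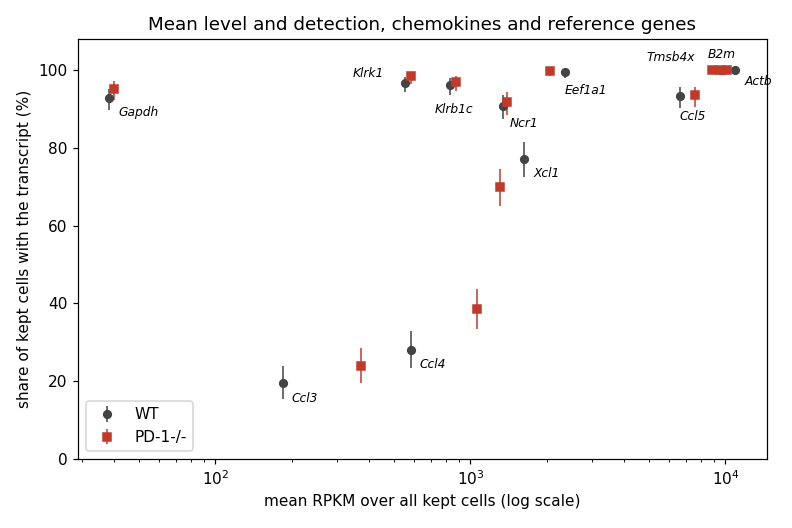
Share of kept cells with a transcript (percent, exact 95% intervals as bars) against its mean RPKM over all kept cells (log scale), for the 4 chemokines and 8 reference genes in WT (grey circles) and PD-1-/- (red squares). Ccl3, Ccl4 and Xcl1 lie below all 8 reference genes, which were listed as constant genes, so that order says little. Ccl4 was found in 28.1% and 38.5% of cells at means of 582.6 and 1064 RPKM.

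Ccl3 and Ccl4, neighbors on chromosome 11, were found together. In WT, Ccl4 was found in 71.4% (59.4 to 81.6) of the 70 cells with Ccl3 and in 17.6% (13.4 to 22.5) of the 290 cells without it. In PD-1-/- the shares were 77% (66.8 to 85.4) of the 87 cells with Ccl3 and 26.5% (21.4 to 32.1) of the rest. Seen from Ccl4, Ccl3 was found in 49.5% of WT cells with Ccl4 and 7.72% without, and in 47.5% and 8.89% in PD-1-/-. In all 4 comparisons the interval with the partner lay wholly above the interval without it.

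Levels moved with detection too. In WT cells the median Ccl4 level was 699 RPKM in the 50 cells that also held Ccl3 and 225.3 RPKM in the 51 that did not. On the PD-1-/- plate it was 912 RPKM in 67 cells and 277.9 RPKM in 74. Within cells holding both, Ccl4 was the higher in 38 of 50 (WT) and 47 of 67 (PD-1-/-), with a median Ccl4 to Ccl3 ratio of 2.61 and 2.21. Over all cells, the Spearman correlation between Ccl3 and Ccl4 was 0.52 in WT and 0.54 in PD-1-/-, over 726 cells in both. Cells of a genotype share a pool, a plate and its range of depth, so these correlations are descriptions.

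SMART-SEQ2 reads carry no strand, and a longer RefSeq model of Ccl4 overlaps Ccl3 on the opposite strand. The RPKM steps gave a counted length of 661 bases for Ccl4, against 660 bases for its GENCODE transcript, and 792 bases for Ccl3 against 766. The longest stretch shared by the Ccl3 and Ccl4 transcripts was 10 bases. Of the WT cells, 20 held Ccl3 without Ccl4 and 51 held Ccl4 without Ccl3. Whether reads of either gene were counted for the other was not tested, since the annotation used for counting is not known here.

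Xcl1 detection did not go with that of Ccl3 or Ccl4 beyond the intervals. Ccl4 was found in 28.4% of WT cells with Xcl1 and 26.8% without, and in 39.8% and 35.5% in PD-1-/-. Ccl3 was found in 19.4% and 19.5% in WT and in 23.4% and 24.5% in PD-1-/-. The level of Xcl1 nevertheless differed by Ccl3. Among WT cells with Xcl1 its median was 2260 RPKM in the 54 that held Ccl3 and 913 RPKM in the others. Among PD-1-/- cells it was 2144 RPKM in the 60 with Ccl3 and 665 RPKM in the others. By Ccl4 the split was smaller, with Xcl1 medians of 1111 RPKM with Ccl4 and 929 RPKM without in WT. In PD-1-/- they were 1192 and 704 RPKM. In cells holding both Xcl1 and Ccl4, their levels had a Spearman correlation of 0.54 in 79 WT cells and 0.40 in PD-1-/-.

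**Figure D3:**
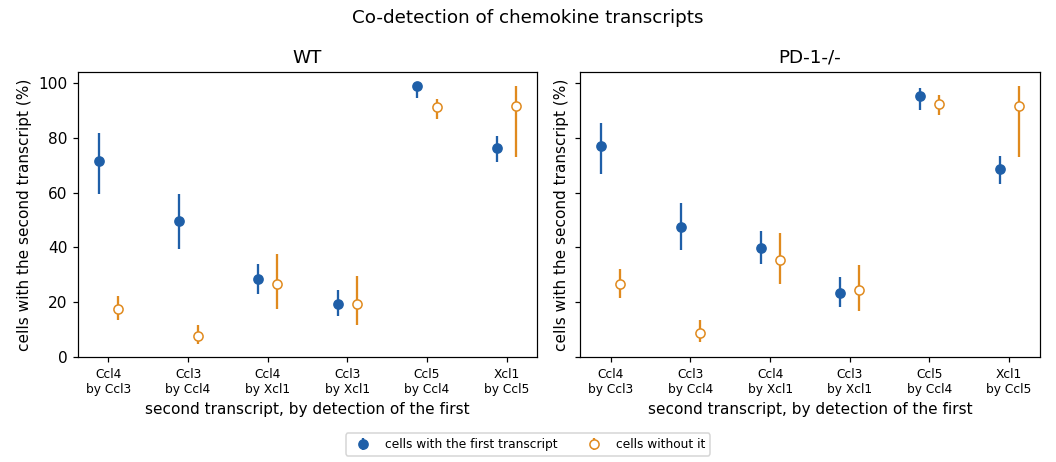
Share of cells with a second chemokine transcript (percent, exact 95% intervals as bars) among cells with the first transcript (filled) and without it (open), in WT and PD-1-/-. Ccl4 was found in 71.4% and 77% of cells with Ccl3 against 17.6% and 26.5% of cells without it, while the intervals by Xcl1 overlap.

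Ccl5 and Xcl1 ran opposite to each other. In WT cells the median Ccl5 level was 7443 RPKM in the 82 cells without Xcl1, 3139 RPKM in those with Xcl1 up to its median, and 1938 RPKM in those above it. In PD-1-/- cells the medians were 10226 RPKM in 110 cells without Xcl1, then 3495 and 2377 RPKM. Ccl5 was thus highest where Xcl1 was absent, in both genotypes. Between the cells with Xcl1 the step was not seen in WT rows I to P, where the medians were 1913 RPKM up to the Xcl1 median and 1943 RPKM above it. The spread was wide, with quartiles of 2069 and 15772 RPKM in WT cells without Xcl1 and of 577 and 6681 RPKM in those above the Xcl1 median.

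The few cells without Ccl5 showed the same order. Of 24 such cells in each genotype, 22 held Xcl1 (91.7%, 73 to 99), where the share among cells with Ccl5 was 76.2% (71.3 to 80.6) for WT and 68.4% (63.2 to 73.3) for PD-1-/-. The intervals overlapped in both genotypes. The Spearman correlation of Ccl5 with Xcl1 was -0.25 in WT and -0.34 in PD-1-/-, and -0.29 and -0.37 without the cells that held CD3 transcripts. Among cells with both transcripts it was -0.13 in WT and -0.06 in PD-1-/-. The 6404 genes found in at least 10% of cells of each genotype were ordered by the lower of their WT and PD-1-/- correlations with Xcl1. From the highest down, Ccl5 stood at rank 6402. In the same order for Ccl5, Xcl1 stood at rank 6367. Cells without Xcl1 also had fewer genes detected, with medians of 2156 against 2288 in WT and 1953 against 2370 in PD-1-/-, and the part of this difference in the result was not tested.

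**Figure D4:**
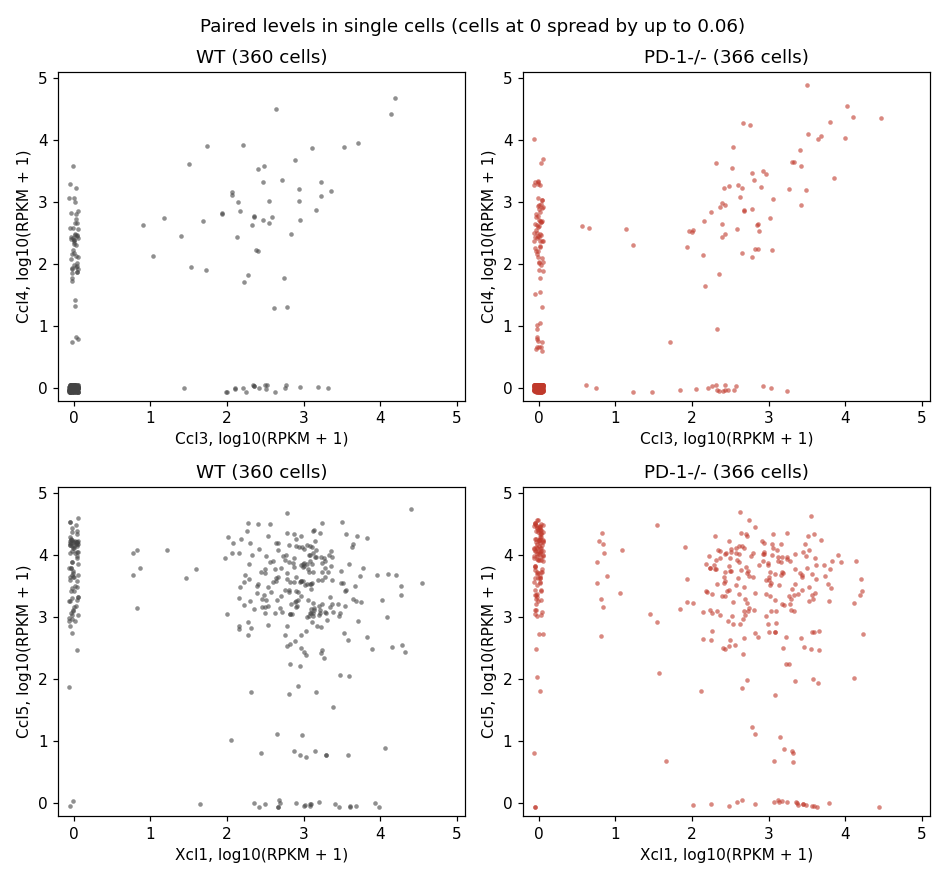
Levels of Ccl4 against Ccl3 (upper panels) and of Ccl5 against Xcl1 (lower panels) as log10(RPKM + 1) in single WT (grey) and PD-1-/- (red) cells, where each point is a cell and cells at 0 are spread slightly. Ccl3 and Ccl4 have Spearman correlations of 0.52 and 0.54 over all cells, those at 0 included, and cells without Xcl1 crowd at high Ccl5.

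The most common combination was Ccl5 with Xcl1 and neither of the others, at 46.1% (40.9 to 51.4) in WT and 34.2% (29.3 to 39.3) in PD-1-/-. Ccl5 alone was held by 50 WT and 64 PD-1-/- cells. All 4 transcripts were found in 42 WT (11.7%, 8.54 to 15.4) and 45 PD-1-/- cells (12.3%, 9.11 to 16.1). Ccl4, Ccl5 and Xcl1 without Ccl3 were found in 36 WT and 50 PD-1-/- cells. Ccl3 or Ccl4 without Ccl5 was rare, but so was absence of Ccl5 from other cells. All 70 WT cells and 85 of 87 PD-1-/- cells with Ccl3 held Ccl5. Of the cells with Ccl4, 1 WT and 7 PD-1-/- cells lacked it. Ccl5 was found in 91.7% and 92.1% of cells without Ccl3 and in 91.1% and 92.4% without Ccl4. The intervals with and without Ccl3, and with and without Ccl4, stood apart in WT and overlapped in PD-1-/-. No member was found in 2 WT and 1 PD-1-/- cells.

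Detection was set beside depth. With cells ordered by reads into equal groups of low, middle and high depth, Ccl4 shares were 21.7%, 30.8% and 31.7% in WT and 27%, 41.8% and 46.7% in PD-1-/-. Xcl1 went from 72.5% to 85% in WT and from 63.1% to 73% in PD-1-/-. Ccl5 held at 93.4% in every depth group of PD-1-/- cells and stood at 89.2%, 95% and 95.8% in WT. Ccl3 had 18.3%, 20.8% and 19.2% in WT and 21.3%, 19.7% and 30.3% in PD-1-/-. The intervals of the low and high groups stood apart for Ccl4 in PD-1-/- and overlapped otherwise. In cells thinned to 100000 reads the shares were 28% and 37.2% for Ccl4 and 76.2% and 68.3% for Xcl1, near those of all kept cells. Whether depth itself set the shares was not tested. Recovered reads fell below 10000 in 11 WT and 5 PD-1-/- cells, where an absent transcript says little.

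Between the genotypes, Ccl3 and Ccl4 had higher means and Xcl1 a lower mean on the PD-1-/- plate. Mean Ccl3 was 183.7 RPKM in WT and 371.4 RPKM in PD-1-/-, a log2 ratio of 1.01 (with 1 RPKM added to each mean). Mean Ccl4 was 582.6 and 1064 RPKM, a log2 ratio of 0.87. For Ccl5 the log2 ratio was 0.20 and for Xcl1 -0.31. Among 6566 genes that reached a mean of 10 RPKM in either genotype, 5.35% were at least 1.5-fold higher on the PD-1-/- plate and 5.28% at least 1.5-fold lower. Ccl3 and Ccl4 passed that fold and Ccl5 and Xcl1 did not. The quartiles of the log2 ratio over these genes were -0.20 and 0.21, so the ratio of Xcl1 lay below and that of Ccl5 within them.

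The difference in means had more than 1 source. The mean of Ccl3 in cells with the transcript differed by 0.73 on the log2 scale and the share of cells by 0.29. For Ccl4 these were 0.41 and 0.46, and for Xcl1 -0.16 and -0.14. The exact intervals of the share stood apart between the plates for Ccl4 and overlapped for the other members, and over all 6566 genes they stood apart with the higher share in PD-1-/- for 0.822% and with the lower for 0.761%. The gap for Ccl4 was narrow, from an upper bound of 33% in WT to a lower bound of 33.5% in PD-1-/-. It closed when a cell needed 10 RPKM to count (27.2% and 35%), in cells thinned to 100000 reads (28% and 37.2%) and in plate rows I to P (30.8% and 37.4%).

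Rows I to P alone also brought the log2 ratio of Ccl4 to 0.39, below 1.5-fold, and rows A to H gave 1.31. The ratio was 1.11 without cells holding CD3 transcripts, where that of Ccl3 was 1.46. Among the 65 WT and 83 PD-1-/- cells with CD3 transcripts the direction was the other way, with a log2 ratio of -1.67 for Ccl3 (means of 266.6 and 83.1 RPKM) and -0.86 for Ccl4 (520.3 and 287.1 RPKM). Leaving out the highest cell of each plate gave 1.04 for Ccl3 and 0.93 for Ccl4. With 1 pool a genotype, none of these differences can be assigned to the genotype.

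**Figure D5:**
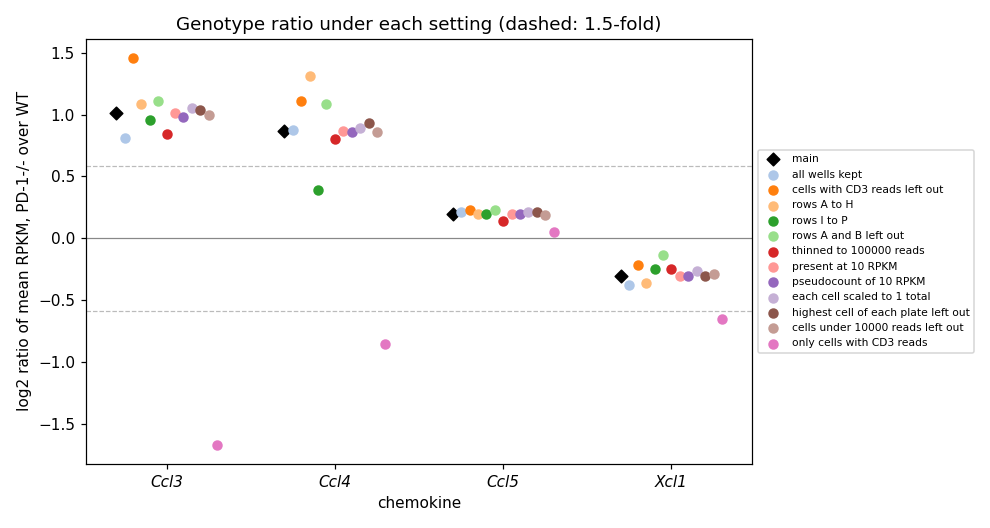
Log2 ratio of mean RPKM, PD-1-/- over WT, of each chemokine under every setting tried (black diamond: as reported, colored points: alternatives, dashed lines: 1.5-fold). Ccl3 lies above 1.5-fold except among cells with CD3 transcripts alone, where it is -1.67, Ccl4 falls to 0.39 in plate rows I to P and -0.86 among cells with CD3 transcripts, Xcl1 reaches -0.66 there, and Ccl5 stays within 1.5-fold.

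Among genes of NK cell activation, Ifng, which encodes interferon-γ, went with Ccl3 and Ccl4. It was found in 36.4% (27.8 to 45.6) of WT cells with Ccl3 or Ccl4 and 20.5% (15.6 to 26.2) of the other WT cells. In PD-1-/- it was found in 42.2% (34.5 to 50.3) and 22.4% (16.9 to 28.8). Its share was higher with the intervals apart in both genotypes, as for 1 of the 6402 genes found in at least 10% of cells of each genotype (0.0156%). Of 28 activation genes, 20 were in that background, and of these 1 in WT and 4 in PD-1-/- had a higher share, against 0.172% and 0.375% of the background. None of the 20 had a lower share, where the background was 0.391% and 0.422% (0.0312% in both). Nr4a1 and Egr3 lay outside the background, below its minimum. In WT the interval also stood apart for Nr4a1, an immediate early nuclear receptor, at 18.2% against 5.86%, and in PD-1-/- its shares of 8.70% and 3.90% had overlapping intervals.

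In PD-1-/- the others were Egr1, an immediate early factor, at 18% against 6.34%, Zfp36, which destabilizes cytokine mRNA, at 60.2% against 43.9%, and Irf8 at 83.2% against 61.5%. Egr3, outside the background, stood at 8.70% against 0.976%. Prf1, the pore-forming perforin, stood at 95% against 85.4%, as 1 of 6 cytotoxic effectors, and in WT at 90.9% against 87.4% with overlapping intervals. Without cells holding CD3 transcripts the interval of Prf1 overlapped in PD-1-/- and stood apart in WT. Whether these genes differ between the genotypes in this respect was not tested. The number of genes was close, with a median of 2221 genes in WT cells with Ccl3 or Ccl4 and 2271 in the others, and 2252 and 2268 in PD-1-/-.

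The same lists were set beside Xcl1. Of the 20 activation genes in the background, here 6403 genes, 3 in WT and 7 in PD-1-/- were found in a higher share of cells with Xcl1, with 3 in both, against 4.03% and 4.86% of the background and 0.703% in both. Tnf was found in 13.3% (9.55 to 17.9) of WT cells with Xcl1 and 2.44% (0.297 to 8.53) without, and in 14.1% and 2.73% in PD-1-/-. Rgs1, a brake on chemokine receptor signaling, stood at 52.2% against 32.9% in WT, and Tnfrsf9, the costimulatory receptor 4-1BB, at 70.1% against 52.4%. Of the 6 cytotoxic effectors 1 was higher, in both genotypes: Gzmc, a granzyme, was found in 37.8% against 13.4% in WT and in 28.5% against 10% in PD-1-/-. Another granzyme, Gzma, was lower with Xcl1 in PD-1-/-, at 86.3% against 96.4%, which no longer stood apart without cells holding CD3 transcripts. Of 8 listed transcription factors 1 was lower, in PD-1-/- only, where 0.0937% of the background had a lower share (0.0469% in WT). This was Klf2, a factor of quiescence and tissue egress, found in 23% of PD-1-/- cells with Xcl1 and 56.4% without. In WT its shares were 40.65% and 52.4% with overlapping intervals. Another of the 8, Bhlhe40, was higher with Xcl1 in WT, at 71.2% against 53.7%, which no longer stood apart without cells holding CD3 transcripts. Without cells holding CD3 transcripts, Tnf alone of the 20 remained higher in both genotypes, and the count in PD-1-/- went from 7 to 2.

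Cells with Xcl1 held more genes, as the medians above show, and Gapdh was found in 96.4% of WT cells with Xcl1 and 80.5% without, with the intervals apart. CD3 transcripts were found in 20.9% of WT cells with Xcl1 and 8.54% without, and in 21.1% and 26.4% in PD-1-/-. Their part in these counts was not tested beyond leaving out the cells with CD3.

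The genes most like each member were named by the lower of its Spearman correlations in WT and PD-1-/- cells, over 6404 genes found in at least 10% of cells of each genotype. For Ccl3 the first was Ccl4 (0.52), far ahead of Kdm6b (0.18), Plek, Tagap and Irf8. For Ccl4 the first was Ccl3, followed by Egr1 (0.22), Ccl5, Ifng and Gzmb. For Ccl5 they were Malat1 (0.31), Klf2 (0.30), Cd97 (0.26), Gzma (0.23) and Ccl4. For Xcl1 they were Lilrb4 (0.32), Gp49a (0.31), Serpina3g (0.29), Lag3 (0.27) and Bcl2a1b (0.26). Lilrb4 and Gp49a are near-identical copies and Bcl2a1b belongs to a family of copies, so reads may be split among them. Apart from the pair of Ccl3 and Ccl4, these correlations were weak.

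The wider chemokine family was nearly silent. Of 31 other chemokine genes, 25 were found in any kept cell and none in over 4.10% of the cells of a genotype. Ccl27a was the most frequent, in 3.61% and 4.10% of cells. Cxcl10, an interferon-induced ligand of CXCR3, was found in 3.06% and 1.09%, and Ccl6, a neighbor of Ccl3 in the cluster, in 2.78% and 1.09%. Of the receptors, Xcr1 was found in 1.39% and 1.37% of cells, Ccr1 in 0.556% and 0.273%, and Ccr3 in 0.556% and 0.820%. The sorted cells thus held hardly any transcripts of XCR1, CCR1 or CCR3.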

How the data were processed

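SMART-SEQ2 libraries of sorted NK1.1+ cells were measured on 2 plates of 384 wells, 1 for each genotype. The authors deposited RPKM for 24490 gene entries per well. The submitters' processing notes name TopHat, Cufflinks and the builds mm9 and mm10 without roles. The counting tool and annotation are not given in the sources used here. Groups were taken from the sample titles.

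A transcript was counted as present above 0 RPKM. A well was kept with 1000 to 3500 genes, counting genes above 0 in at least 3 wells. Since a gene's RPKM rises in equal steps, 1 per read, whole read numbers were obtained for 9043 of 11700 genes found in at least 8 wells. In all, 75.8% of values lay within 0.001 of a whole read, and all values of the 4 chemokines did. A first version of this step, tested on simulated data, set the depth of many simulated wells wrong by small factors. It was corrected, after which 100% of simulated wells (9043 entries) were right, and the correction changed no kept well here. In every kept well at least 98.9% of values up to 20 reads were whole and at least 50.0% of those were odd. Reads served for depth, thinning, the RPKM of 1 read and the counted lengths only. Promoters are from RefSeq (GRCm38.p6), which held 2 of the 4 genes.

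No test between genotypes, SD or p-value was computed, since each genotype is 1 pool. Log2 ratios are of mean RPKM plus 1. Lists were compared by exact intervals. Named genes are the 4 chemokines, the genes of the lists, and for each chemokine the 5 most alike. The members and lists were chosen with earlier results of these data known. The study itself singled out some of these genes on these cells. Python 3.11.15, numpy 2.4.6, pandas 2.3.3, scipy 1.17.1 and matplotlib 3.10.9 were used. Alternatives were a presence threshold, all wells, no CD3 cells, plate rows, thinning, pseudocount and scaling. Leaving out the highest cell or cells under 10000 reads, and using the cells with CD3 reads alone, were added after seeing the data. The result of 1 gene of the lists is not reported here.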

Additional observations from a re-analysis of the deposited data

Results flagged for a closer look

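Chemokine transcripts also appeared in wells outside the kept range. Wells above 3500 genes held medians of 239408 (WT) and 257748 (PD-1-/-) recovered reads, near those of kept cells. Detection in them is therefore a description only. Among 16 WT wells above 3500 genes, Ccl4 was found in 5, Ccl5 in 10 and Xcl1 in 15. Among 14 PD-1-/- wells above 3500 genes, Ccl4 was found in 5, Ccl5 in 12 and Xcl1 in 13. In these wells mean Ccl5 was 525 RPKM in WT and 940 RPKM in PD-1-/-, against 6624 and 7611 RPKM in kept cells. Mean Xcl1 was 3841 RPKM in WT and 1287 RPKM in PD-1-/-, against 1623 and 1312 RPKM in kept cells. Among 8 WT wells below 1000 genes, with a median of 412 recovered reads, Ccl5 was found in 4.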

How the results depend on the processing

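Among all values under alternative settings, 12 were counted as moved and 10 changed sign. Log2 ratios, percents of genes and gene counts have no error here, so their moves are descriptions only. The differences between shares have no interval of their own, and those counted as moved had a share outside its reported interval. The log2 ratio of Ccl4 moved to 0.39 in rows I to P. Among cells with CD3 reads alone the log2 ratio was -1.67 for Ccl3, -0.86 for Ccl4 and -0.66 for Xcl1. The Ccl3 share with minus without Xcl1 in WT, -0.09 points as reported, became 0.657 at 10 RPKM, 1.68 with all wells and 4.91 in rows I to P. The same for Ccl4, 1.59 points, became -3.42 without CD3 cells, -1.21 in rows I to P, -2.90 without rows A and B and -0.205 after thinning. These differences were near 0 to begin with. The Ccl5 share with minus without Ccl4 was 7.89 points in WT and became 9.26 without CD3 cells, 9.52 in rows I to P and 9.21 without rows A and B. In PD-1-/- it was 2.59 and became 8.11 with rows A to H alone but -3.28 with rows I to P alone. The Ccl5 share with minus without Xcl1 became -7.20 in PD-1-/- rows A to H and -8.51 in WT rows I to P, and the Ccl3 share with minus without Ccl4 became 41.8 in PD-1-/- rows I to P. Without the filter on the mean, 9.01% of genes were 1.5-fold higher and 12.4% lower. Without CD3 cells, 2 activation genes were higher with Xcl1 in PD-1-/-. For all of these the cause was not tested. Thinning left out 32 WT and 19 PD-1-/- cells of lower depth. No paired analysis was possible because each genotype is 1 pool and no result comes from a test.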
